A study of Homo sapiens with 58 samples.

Results

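The first step of a differentiation of H1 cells, an established wild-type human embryonic stem cell line, was examined by comparing 3 libraries of undifferentiated cells (Day0) with 3 libraries of cells labelled mesendoderm (Day1). These 6 libraries were taken by their labels from the 58 of the series, in which 12 libraries follow Day0 to Day3 and 46 follow a later time course. All cells were at passage 30 to 40 and were kept in E8, a defined stem cell medium that contains FGF2 and TGFβ1. For Day1 they were seeded as single cells in E8 with activin A at 100 ng/mL, a ligand of the Nodal receptors, and CHIR99021 at 3 µM, an inhibitor of the kinase GSK3, for 24 h. The labels do not say that Day0 cells were also freshly seeded as single cells, so the 2 agents and the seeding cannot be told apart. Nor do they say that the replicates were separate cultures, so the p-values reflect no more than how libraries vary, and that variation may be technical. The spread was estimated from all 12 libraries of Day0 to Day3. Of the 19084 genes in the table, 12765 had enough counts to be tested, and 3297 had no count in any of the 6 libraries.

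In the embryo, pluripotent epiblast cells enter the primitive streak where Wnt and Nodal signals meet. Wnt signals stop GSK3 from marking β-catenin for destruction, and β-catenin then works with TCF and LEF factors on its target genes, while Nodal and activin act through receptor kinases and SMAD2 and SMAD3. Cells of the streak, also called mesendoderm where mesoderm and endoderm have not yet parted, switch on T-box factors, loosen their epithelial contacts and migrate.

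The Day0 libraries held 7.65, 5.66 and 5.82 M expected counts, and the Day1 libraries 4.36, 5.95 and 5 M. Values are given as CPM, a library's counts scaled to the same total in each. In a library 3 counts came to between 0.392 and 0.689 CPM. Where a gene had no Day0 count, the floor for its fold was 3 counts in the summed total of the 3 Day0 libraries. Day0 replicate 1 stood apart from the other 2 Day0 libraries. It differed by more than 1.5 on the log2 scale from an agreeing pair of its fellows at 293 genes, against 68 to 228 genes for the other 5 libraries. NODAL and GSC, both streak genes, were higher in it than in the other 2. What set it apart was not tested, and for some of the genes and counts below the value without it is given too. Gene length moved with the calls on the falling side: of the 3134 shortest genes 0.702% were called lower and of the 3134 longest 4.40%, against 2.87% and 3.10% called higher, and its part in the results was not tested.

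Each adjusted p below is from edgeR's quasi-likelihood test with Benjamini-Hochberg adjustment over all 12765 genes. Where another fit is named or a library is left out, it is from that fit, with its own adjustment. A gene is called here when its adjusted p was under 0.05 and its log2 fold change at least 1 in either direction. By this rule 661 genes changed, or 5.18% of those tested. They were 347 higher at Day1 (2.72%) and 314 lower (2.46%). The rises were larger than the falls at the extremes, with 44 genes at a log2 of 5 or more and 15 at −5 or less. Genes called higher made up 1.23% ± 0.0127 (SD, n = 3) of all TPM, a measure per gene length, at Day0 and 3.94% ± 0.131 at Day1. Genes called lower went from 3.77% ± 0.437 to 1.26% ± 0.0188. The median log2 fold change over all tested genes was −0.01. In 658 of the 661 genes called the libraries of the 2 days did not overlap. Of the genes called, 177 of the 347 higher and 135 of the 314 lower were called in each of 15 other fits that could test them, which changed the scaling, the filter, the tool or left out 1 library. The RNA came from whole wells, so fewer cells expressing a gene and less RNA per cell cannot be told apart in any of these results.

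**Figure D1:**
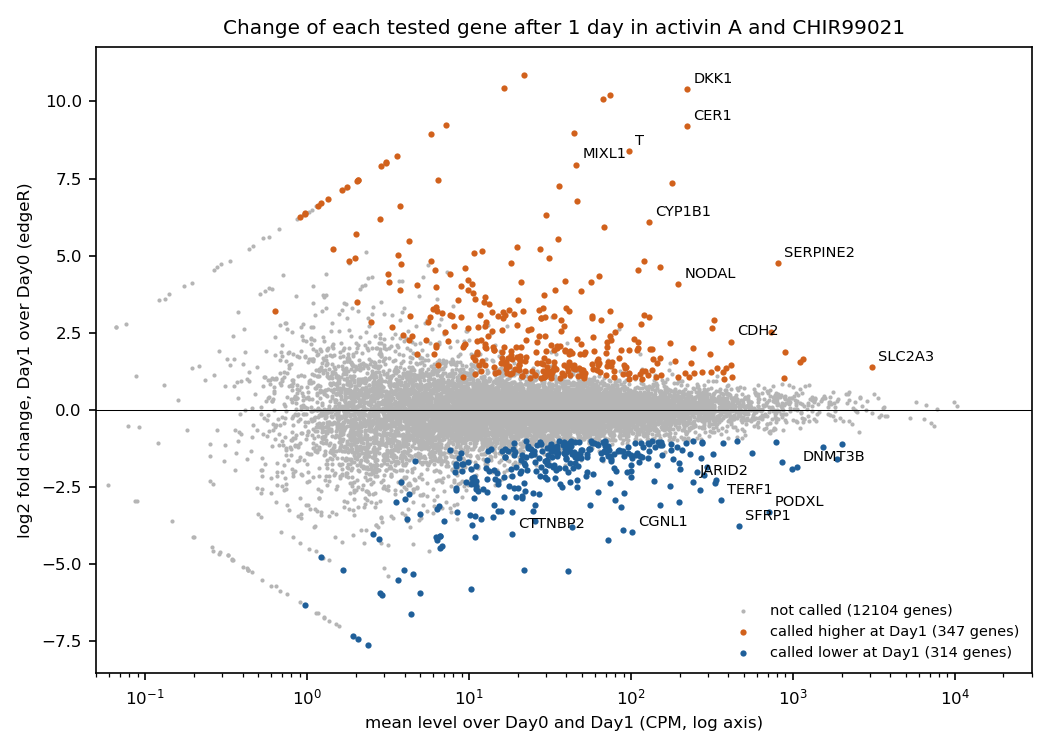
Log2 fold change of each of the 12765 tested genes, Day1 over Day0 from edgeR, against its mean level over both days in CPM on a log axis. Each point is a gene, and the 347 called higher and 314 called lower are coloured. DKK1, CER1, T and MIXL1 lie at the top, and SFRP1, CGNL1 and PODXL lie among the abundant genes that fell.

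The markers of mesendoderm matched the label. T (brachyury), a T-box factor of the streak, was at 1.05, 0.353 and 0.172 CPM at Day0 and at 151, 194 and 238 CPM at Day1. EOMES, the T-box factor that acts with Nodal signals, went from 3.79, 1.41 and 1.03 CPM to 397, 358 and 315 CPM. MIXL1, a homeobox factor of the streak, had no count in 2 Day0 libraries and 0.915 CPM in the other, against 79.0, 109 and 86.8 CPM at Day1. For each of these the lowest Day1 library lay far above the highest Day0 library. Their log2 fold changes were 8.38 ± 0.44 (SE), 7.36 ± 0.65 and 7.95 ± 0.67, with adjusted p of 5.15e-09, 1.65e-06 and 2.48e-06. Without Day0 replicate 1 these values were larger, at 9.43 for T, 8.19 for EOMES and 11.84 for MIXL1. MIXL1 then had no Day0 count left, so its 11.84 is set by the fit and is not a measured fold.

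Of 41 streak genes in the table, 37 were tested and 23 rose, against 2.72% of all tested genes called higher, and none fell. The median over the 37 was 3.70 on the log2 scale. In 20 of the 23 the call was made in every other fit. The transcription factors among them were 14 of 22 tested. GATA6, a zinc finger factor of endoderm and cardiac mesoderm, had 2 counts over the 3 Day0 libraries and stood at 146, 125 and 134 CPM at Day1, a ratio of 1282 with a 95% counting interval of 354 to 10595. EVX1, a homeobox factor of the posterior streak, had no count at Day0 and 10.8, 16.1 and 16.6 CPM at Day1, at least 94.2-fold higher. GSC (goosecoid), which marks the anterior streak, went from 2.74 CPM in Day0 replicate 1 and no count in the other 2 libraries to 48.0, 36.7 and 32.2 CPM. Genes of the anterior and of the posterior streak were thus both present at Day1, and bulk RNA does not show whether they were in the same cells. The caudal factors CDX1 and CDX2 differed in level, CDX1 reaching 32.8 ± 5.22 CPM (at least 210-fold higher) and CDX2 3.85 ± 0.973 CPM, a ratio of 36.3 with an interval of 9.60 to 307. Leaving out Day0 replicate 1 moved the fitted log2 of GATA6 from 10.07 to 12.40 and that of GSC from 5.28 to 10.61. Neither gene then had a Day0 count left, so 12.40 and 10.61 are set by the fit and are not measured folds. The fitted log2 of CDX2 was 4.91, and 4.30 or 7.33 without Day0 replicate 1 or 3.

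Several streak genes are secreted signals. NODAL, the ligand that patterns the streak, was at 53.9, 6.00 and 5.50 CPM at Day0 and at 352, 404 and 356 CPM at Day1. The log2 change was 4.08 ± 0.65 (adjusted p 0.000725) and 6.03 without Day0 replicate 1, the library with the high value. CER1, a secreted antagonist of Nodal, BMP and Wnt ligands, rose from 0.779 ± 0.678 to 443 ± 95.5 CPM and gained 827 TPM on average. FGF4, an FGF ligand of epiblast and streak, rose from 0.407 ± 0.560 to 71.2 ± 17.4 CPM. FGF17 had no count at Day0 and 41.7, 46.4 and 43.1 CPM at Day1, at least 280-fold higher. BMP2, a BMP ligand, rose from 1.70, 2.48 and 2.58 CPM to 113, 139 and 151 CPM (log2 5.92 ± 0.53, adjusted p 1.79e-06). None of these secreted signals overlapped between the days, and neither did 346 of the 347 genes called higher. The log2 of FGF4 was 7.25, and 9.34 without Day0 replicate 1, and that of CER1 9.21, and 10.15 without Day0 replicate 3. APLNR, the apelin receptor of migrating mesoderm, rose from 0.873 ± 0.357 to 92.3 ± 15.8 CPM.

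Members of the streak list that did not pass the test were mostly low. LHX1, an anterior streak factor, had 1.63 ± 1.35 CPM and then 13.6 ± 1.02 CPM (adjusted p 0.112). FGF8, an FGF ligand of the streak, had 2.07, 13.3 and 12.2 CPM at Day1 after 1.96 CPM in 1 Day0 library and none in the other 2 (adjusted p 0.136). The 3 streak genes whose call was lost in another fit were GATA4, TBX3 and WNT3. GATA4, a partner of GATA6, had 12.9 ± 2.90 CPM at Day1 after 1 count at Day0, and its adjusted p was 0.0588 and 0.0566 without Day0 replicate 2 or 3. Its log2 was 7.46, and 9.02 without Day0 replicate 1. For TBX3, a T-box factor, the adjusted p was 0.0587 without Day0 replicate 2 and the log2 of 4.60 was 6.53 without Day0 replicate 1, and WNT3 is given with its pathway.

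**Figure D2:**
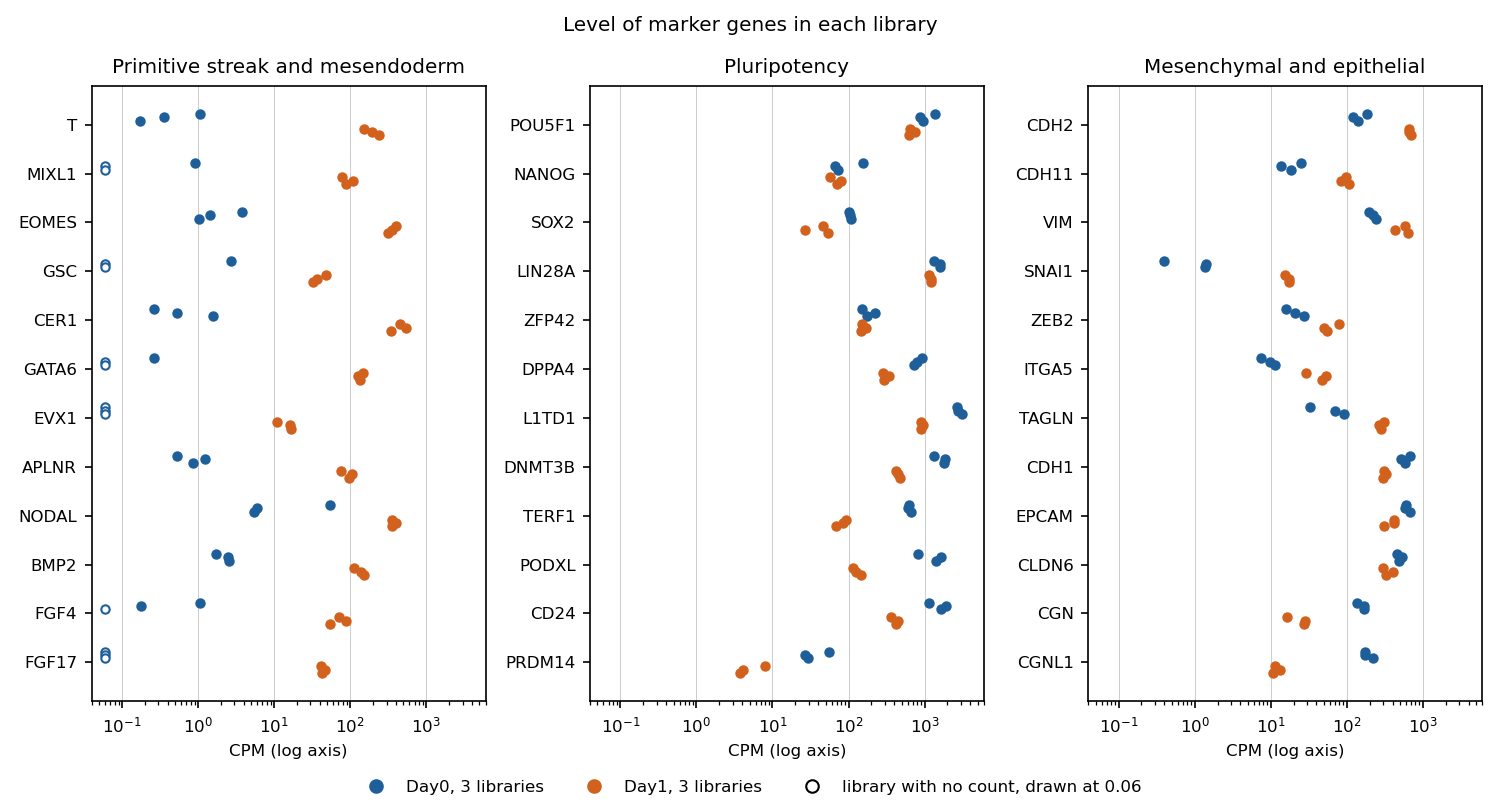
CPM of 36 genes in the 3 Day0 and 3 Day1 libraries, on log axes, 1 point per library, with open points for libraries that had no count. The days do not overlap for any streak gene on the left, POU5F1, NANOG, LIN28A and ZFP42 in the middle panel lie close together, and on the right CDH2 rises while CDH1 and EPCAM were not called.

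SOX17, a defining factor of definitive endoderm, had no count at Day0 and 0, 1.68 and 0.200 CPM at Day1. FOXA2, shared by anterior streak and endoderm, had 0.230, 3.70 and 2.00 CPM at Day1. Of 21 endoderm genes 11 were tested and 4 rose (CER1, GATA4, GATA6 and GSC), all of them also streak genes, while SHISA2 fell. For this and the mesoderm lists that follow, the shares called over all tested genes were 2.72% higher and 2.46% lower. The summed level of the endoderm list went from between 75.5 and 114 CPM to between 590 and 787 CPM. CER1 and GATA6, given above, made up most of that sum at Day1. Of 15 presomitic mesoderm genes tested 5 rose (TBX6, RSPO3, WNT5A, CDX2 and PAX3) and none fell, with 3 to 5 higher when 1 library was left out. The summed level of the list went from between 45.5 and 104 CPM to between 194 and 213 CPM, most of it at Day1 from WNT5A, which is given with its pathway. Of 8 lateral and cardiac mesoderm genes tested 4 rose (MYL7, GATA4, BMP4 and BMP2) and none fell, but 2 were higher without Day0 replicate 1 or 3 or Day1 replicate 2, and 1 without Day0 replicate 2. The summed level of that list went from between 17.1 and 29.1 CPM to between 150 and 196 CPM, most of it at Day1 from BMP2. MYL7, a cardiac myosin chain, had no count at Day0 and 2.07, 3.20 and 2.80 CPM at Day1, at least 17.5-fold higher, and lost its call without any 1 Day0 library or Day1 replicate 2 (adjusted p 0.0511 to 0.0650). PAX3, a paired box factor of somites, was at 3.46 ± 1.32 and 9.38 ± 2.52 CPM and lost its call without Day0 replicate 1 or 2 or Day1 replicate 2 or 3 (0.0504 to 0.107). MSGN1, a defining factor of the presomitic mesoderm that follows the streak, was at 0.230 to 0.800 CPM at Day1. TBX6, which also marks that tissue, rose from no count to 1.38, 1.85 and 2.20 CPM, at least 11.7-fold higher. Its level at Day2 was 13.4 ± 4.64 CPM.

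None of the trophoblast and amnion, germ cell, or endothelial and blood genes was called, of 9, 3 and 2 tested. Of all tested genes 5.18% were called, so the lack of calls in lists of this size is not a result about them. CGA, the hormone subunit of trophoblast, had no count in any library, and GATA3 stood at 3.01 CPM or less. The summed trophoblast and amnion level was 29.4 to 68.8 CPM at Day0 and 64.0 to 74.4 CPM at Day1. The germ cell sum went from 107 to 153 CPM at Day0 to 34.7 to 43.2 CPM at Day1. In the fit of the 6 libraries alone, which called 9.49% of its genes, 4.57% higher and 4.92% lower, 2 trophoblast and amnion genes were called higher and 1 lower, and 1 germ cell gene lower. Of 17 neural genes tested, LMO3, a LIM-only protein, fell from 45.0 ± 29.1 to 4.52 ± 2.05 CPM (log2 −3.29, and −2.61 without Day0 replicate 1), and STMN2, a neuronal tubulin regulator, was called higher at 193 ± 63.1 against 93.2 ± 19.8 CPM. The call of STMN2 was lost without any of 5 libraries, all but Day1 replicate 2, with an adjusted p of 0.0643 to 0.204. PAX6, the defining neural factor, was at 36.0, 13.5 and 19.4 CPM at Day1 against 4.97, 6.00 and 18.4 CPM at Day0, and the days overlapped.

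Pluripotency genes fell unevenly. Of 31 pluripotency genes tested, 15 fell, against 2.46% of all tested genes, and HHLA1 alone was called higher. Among the core factors POU5F1 and NANOG were not called. POU5F1 (OCT4), a homeodomain factor required for pluripotency, was at 1382, 874 and 966 CPM at Day0 and 644, 738 and 620 CPM at Day1, and its log2 change of −0.66 ± 0.22 was not called (adjusted p 0.0778). NANOG, its partner, overlapped between the days, at 156, 67.0 and 72.1 CPM and then 56.5, 80.7 and 70.7 CPM. The RNA-binding protein LIN28A (1510 ± 169 and 1199 ± 36.3 CPM) and the zinc finger factor ZFP42 (185 ± 38.4 and 155 ± 13.9 CPM) were not called either. SOX2, the HMG box factor kept in neural fates, was at 103, 106 and 108 CPM and then at 46.2, 26.4 and 53.1 CPM, without overlap. Its log2 change of −1.31 ± 0.34 passed the test (adjusted p 0.024), but not without Day0 replicate 2 or 3 or Day1 replicate 1 or 2, where the adjusted p was 0.0603 to 0.121.

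Other genes of the stem cell state fell further than POU5F1 and NANOG, though DPPA4 fell by about as much as SOX2. TERF1, a telomere-binding protein, went from 625, 611 and 668 CPM to 92.0, 83.4 and 68.9 CPM, a log2 change of −2.93 ± 0.18 (adjusted p 2.42e-08). PODXL, the sialomucin that carries the TRA-1 surface epitopes, fell from 831, 1630 and 1405 CPM to 114, 125 and 145 CPM (log2 −3.31 ± 0.55, adjusted p 0.00105). L1TD1, an RNA-binding protein of stem cells, fell from 2834 ± 238 to 917 ± 22.2 CPM, and POLR3G, an RNA polymerase III subunit, from 561 ± 23.0 to 114 ± 15 CPM. DPPA4, a chromatin protein, fell from 822 ± 105 to 305 ± 30.6 CPM. All Day1 values of these 5 genes lay below all Day0 values, as in 312 of the 314 genes called lower. Each of the 5 was called in every other fit, as were 135 of the 314. The deubiquitinase USP44 fell 8.59-fold, and the surface proteins THY1 and LRRN1 fell 3.14-fold and 3.01-fold. CD24, a surface glycoprotein that was not on the list, fell 3.75-fold from 1569 ± 373 CPM, and MYCN, the MYC relative of early embryonic cells, fell from 94.2 ± 33.6 to 21.9 ± 4.42 CPM while MYC stayed at 61.1 ± 15.8 and 57.7 ± 9.43 CPM (adjusted p 0.961).

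The transcription factors PRDM14 and FOXD3 were also called lower. PRDM14, a repressor that guards pluripotency, went from 37.0 ± 15.6 to 5.29 ± 2.39 CPM, and its adjusted p was 0.0759 to 0.115 without Day0 replicate 1 or Day1 replicate 2 or 3. FOXD3, a forkhead factor, had 115 counts at Day0 and 1 at Day1, a ratio of 92.0 with a 95% interval of 16.2 to 3664, and lost its call without any 1 of the 6 libraries (adjusted p 0.0676 to 0.123). Its log2 was −5.99, and −7.90 without Day1 replicate 3. HHLA1 rose from 1.98 ± 0.684 to 15.9 ± 4.28 CPM and likewise lost its call without any 1 library (adjusted p 0.0617 to 0.157). Of 6 genes of the naive state tested, KLF5 and TBX3 rose, against 2.72% of all tested genes called higher. KLF5, a Krüppel-like factor, had 24.2 ± 7.69 CPM at Day1 against 2.24 ± 0.887 CPM, and its adjusted p was 0.0513 and 0.0669 without Day0 replicate 2 or Day1 replicate 3.

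DNA methylation and Polycomb genes were called only in the falling direction. Of 18 tested, 6 fell and none was called higher, against 2.46% and 2.72% of all tested genes. DNMT3B, the de novo DNA methyltransferase of the epiblast, fell from 1342, 1858 and 1777 CPM to 426, 448 and 480 CPM, a log2 change of −1.85 ± 0.14 (adjusted p 3.5e-07). JARID2, a cofactor that guides Polycomb repressive complex 2, fell from 403, 428 and 391 CPM to 91.4, 65.9 and 80.4 CPM (log2 −2.33 ± 0.17, adjusted p 2.01e-07). PHC1, a subunit of Polycomb repressive complex 1, fell from 459 ± 102 to 104 ± 23.9 CPM, and CBX2, a chromodomain subunit of that complex, from 100.0 ± 15.1 to 43.6 ± 6.42 CPM. The core enzyme EZH2 did not pass the test, with 166 ± 14.9 CPM before and 242 ± 40.4 CPM after the 24 h (adjusted p 0.0797), and the maintenance methyltransferase DNMT1 was not called. DNMT3A and the methylcytosine oxidase TET1 fell close to the limit of 1, at log2 −1.01 and −1.08. Without Day1 replicate 1 DNMT3A had an adjusted p of 0.0545, and without Day1 replicate 2 TET1 had a log2 of −0.97.

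The Wnt pathway changed in both directions. Of 57 members tested, 16 rose and 6 fell, against 2.72% and 2.46% of all tested genes, and the median was 0.12. In 12 of the 16 and 5 of the 6 the call was made in every other fit. The secreted inhibitors were exchanged. SFRP1, which binds Wnt ligands outside the cell, was one of the most abundant Wnt genes at Day0 with 395, 1172 and 1034 CPM and fell to 65.2, 49.9 and 71.6 CPM (log2 −3.77 ± 0.32, adjusted p 1.1e-06). SFRP2 fell from 158 ± 10.2 to 56.2 ± 7.58 CPM. DKK1, which blocks the LRP5 and LRP6 co-receptors, went from 0.392, 0.530 and 0 CPM to 410, 471 and 447 CPM, a log2 change of 10.39 ± 0.75 (adjusted p 2.01e-07). DKK4, of the same family, had 2 counts at Day0 and 123, 152 and 171 CPM at Day1. The ratio was 1434 with an interval of 397 to 11849, and the log2 was 10.21. Without Day0 replicate 1, which held these Day0 counts, the log2 was 12.54, which is set by the fit and is not a measured fold. APCDD1, a membrane inhibitor, rose from 9.02, 0.883 and 2.41 CPM to 27.3, 42.5 and 46.6 CPM, with a log2 of 3.21 that was 4.55 without Day0 replicate 1. The summed level of all secreted or surface inhibitors overlapped between the days, at 619 to 1419 CPM and 732 to 866 CPM.

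The transcription factors at the end of the pathway changed in the same split manner. TCF7L1 and TCF7L2, of which TCF7L1 is known mainly as a repressor in stem cells, fell. TCF7L1 went from 50.2, 62.7 and 59.8 CPM to 22.5, 19.7 and 28.2 CPM (log2 −1.27 ± 0.25, adjusted p 0.00393), and TCF7L2 from 26.3, 55.3 and 48.7 CPM to 12.6, 8.41 and 14.6 CPM (log2 −1.84 ± 0.38, adjusted p 0.0057). LEF1 and TCF7, known mainly as activators, rose. LEF1 went from 3.92, 6.35 and 1.72 CPM to 25.2, 36.3 and 40.6 CPM (log2 3.12 ± 0.36, adjusted p 3.08e-05), and TCF7 from 5.60 ± 0.678 to 22.4 ± 6.01 CPM (adjusted p 0.00488). Per length, the mean TPM of the 4 genes was 46.9, 26.1, 3.19 and 4.41 at Day0 and 18.0, 6.67, 25.6 and 16.9 at Day1 in the order TCF7L1, TCF7L2, LEF1 and TCF7. TCF7L1 thus had the highest mean of the 4 at Day0 and LEF1 at Day1.

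Feedback genes of the pathway rose. AXIN2, a scaffold of the β-catenin destruction complex and a common readout of Wnt signalling, went from 47.8, 40.2 and 34.7 CPM to 170, 153 and 137 CPM (log2 1.93 ± 0.25, adjusted p 7.9e-05). NKD1, a Dishevelled antagonist, rose from 4.08 ± 2.97 to 74.6 ± 12.4 CPM, and its log2 of 4.17 was 4.90 without Day0 replicate 1. DACT1, another Dishevelled-binding protein, rose from 36.0 ± 17.5 to 174 ± 3.62 CPM. SP5, a zinc finger factor that acts downstream of β-catenin, had 3 counts at Day0 and 84.4, 86.4 and 96.2 CPM at Day1, a ratio of 568 with an interval of 194 to 2758. Its log2 was 8.96, and 8.31 or 9.82 without Day0 replicate 1 or 2. β-catenin itself (CTNNB1), APC, GSK3B and AXIN1 were not called.

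Among ligands and receptors, WNT5B rose from 1.90 ± 1.96 to 60.7 ± 13.0 CPM, with a log2 of 4.93 that was 6.11 without Day0 replicate 1. RSPO3, a secreted agonist that spares Frizzled receptors, rose from 3.31 ± 0.764 to 29.3 ± 7.50 CPM. The Wnt5a co-receptors ROR1 and ROR2 parted. ROR1 fell from 30.1, 59.0 and 61.0 CPM to 11.5, 9.92 and 9.50 CPM (adjusted p 0.00555), and ROR2 rose from 13.9, 3.35 and 2.24 CPM to 56.0, 53.5 and 47.4 CPM (adjusted p 0.00127). The log2 of ROR2 was 3.00 and, without Day0 replicate 1, 4.25. None of the 10 Frizzled receptors tested was called. FZD7, a Frizzled of stem cells, was at 51.6, 330 and 318 CPM at Day0, where replicate 1 was the low library, and at 109, 118 and 114 CPM at Day1.

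Some Wnt calls were lost when a library was left out. WNT3, the streak-inducing ligand, was at 1.98 ± 1.5 and 22.8 ± 4.50 CPM (adjusted p 0.0412), and lost its call without any 1 of the 6 libraries (adjusted p 0.0538 to 0.152). Its log2 was 3.50, and 4.22 without Day0 replicate 1. The same held for the R-spondin receptor LGR5, at 0.264 ± 0.265 and 7.38 ± 2.92 CPM (0.0710 to 0.137, with a log2 of 4.72 that was 5.49 without Day0 replicate 2), and for the Wnt deacylase NOTUM, with no count at Day0 and 6.17 ± 0.863 CPM at Day1, at least 39.6-fold higher (0.0561 to 0.0711). WNT5A was at 62.6, 9.89 and 4.81 CPM and then at 124 ± 13.8 CPM. Its call was lost without Day0 replicate 2 or 3 or Day1 replicate 1 or 2 (adjusted p 0.0513 to 0.0945), and its log2 of 2.27 was 4.11 without Day0 replicate 1. SHISA2, which holds back Wnt and FGF receptors, was called lower and lost its call without Day0 replicate 2 or 3 or Day1 replicate 1 or 2 (adjusted p 0.0628 to 0.0869).

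**Figure D3:**
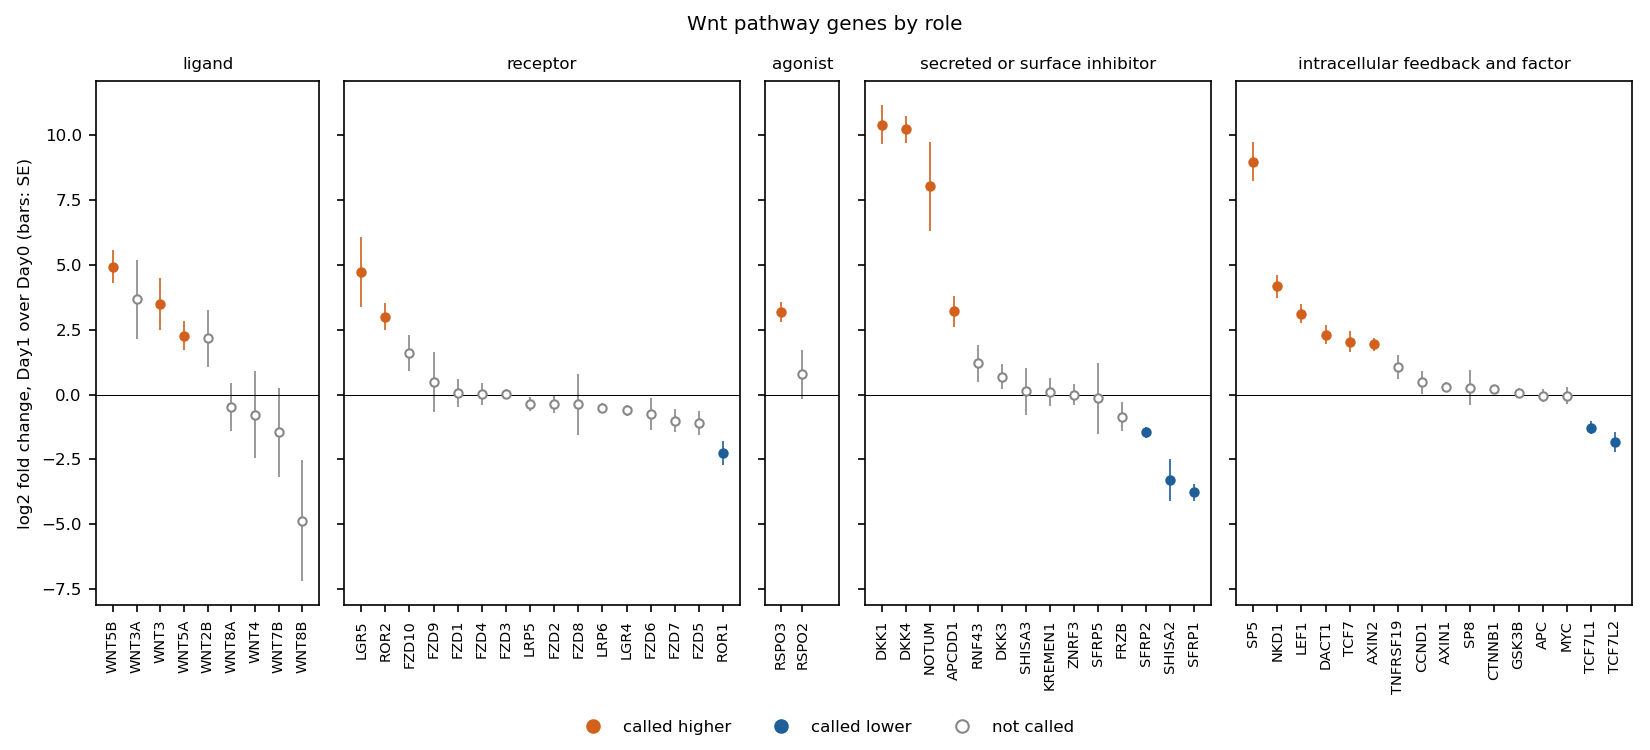
Log2 fold change, Day1 over Day0, of the 57 tested Wnt pathway genes in 5 roles, with bars of 1 standard error. Inhibitors run from DKK1 at 10.39 to SFRP1 at −3.77, receptors from LGR5 to ROR1, and the intracellular factors from SP5 to TCF7L2.

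Because the Wnt agonist CHIR99021 was given, the promoters of the 37 Wnt and streak genes called higher were searched for the letters that TCF and LEF factors are known to bind, CTTTGAA or CTTTGAT on either strand. RefSeq promoters on GRCh38.p14, from 250 bases before to 50 after the start, could be matched for 23 of them. Of these 5 held the letters (21.7%), against 3.9% of the 9506 tested genes with a promoter and 6.86% of all 35116 promoters. The share was 6% of the 250 promoters of genes called higher and 3.23% of the 248 of genes called lower. The T-box letters AGTGTGA or AGGTGT, on either strand, were in 13% of the 23, against 10.2% of tested genes and 14.2% of all promoters, and in none of the 5 shown here. A match is only a description of the letters. The 250 bases before the start of the 5 genes are shown 5′ to 3′ on the gene's strand, since they carry the matches, which stand in capitals. SP5 holds 3, beginning 148, 109 and 84 bases before the start, the first and last of them on the opposite strand. The single matches begin 95 bases before the start in DKK1, 76 in MIXL1, 238 in CDX2 and 214 in DACT1.
DKK1, chr10:52314031-52314280, plus strand: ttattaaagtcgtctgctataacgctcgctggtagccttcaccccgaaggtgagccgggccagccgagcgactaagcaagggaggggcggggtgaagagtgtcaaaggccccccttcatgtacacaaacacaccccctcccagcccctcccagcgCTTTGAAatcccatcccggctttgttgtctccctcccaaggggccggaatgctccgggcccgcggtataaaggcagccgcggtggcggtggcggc
SP5, chr2:170715087-170715336, plus strand: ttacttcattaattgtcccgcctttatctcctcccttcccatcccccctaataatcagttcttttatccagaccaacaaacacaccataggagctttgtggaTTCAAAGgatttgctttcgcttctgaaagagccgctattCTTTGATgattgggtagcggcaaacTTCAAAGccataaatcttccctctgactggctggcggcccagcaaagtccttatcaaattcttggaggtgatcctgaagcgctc
MIXL1, chr1:226223414-226223663, plus strand: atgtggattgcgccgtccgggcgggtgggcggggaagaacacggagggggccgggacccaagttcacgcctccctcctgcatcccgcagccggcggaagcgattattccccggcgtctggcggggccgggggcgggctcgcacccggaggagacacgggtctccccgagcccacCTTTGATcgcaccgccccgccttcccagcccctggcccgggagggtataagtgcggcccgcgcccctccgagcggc
CDX2, chr13:27969316-27969565, minus strand: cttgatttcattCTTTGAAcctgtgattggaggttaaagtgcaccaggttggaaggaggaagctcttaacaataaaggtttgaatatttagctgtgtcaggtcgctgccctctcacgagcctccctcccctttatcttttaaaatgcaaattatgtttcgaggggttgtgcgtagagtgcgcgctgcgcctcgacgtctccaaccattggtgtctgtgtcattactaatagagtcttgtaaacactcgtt
DACT1, chr14:58633811-58634060, plus strand: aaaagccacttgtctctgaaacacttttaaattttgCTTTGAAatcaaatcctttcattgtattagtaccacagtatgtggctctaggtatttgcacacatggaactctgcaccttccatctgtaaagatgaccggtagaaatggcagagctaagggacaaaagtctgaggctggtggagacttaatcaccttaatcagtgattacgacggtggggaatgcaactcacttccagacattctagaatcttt

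In the list for the pathway of the other agent, activin A, fewer genes were called. The Wnt and Nodal lists differ in size and in the kinds of member, so their counts do not compare the responses to the agents. Of 32 Nodal and activin genes tested 5 rose and 1 fell, against 2.72% and 2.46% of all tested genes. The fit of the 6 libraries alone called 7 higher and 1 lower, against 4.57% and 4.92% of its genes. Besides NODAL and CER1, FST (follistatin), which binds and neutralises activin, rose from 42.8, 21.7 and 22.7 CPM to 265, 213 and 216 CPM (log2 3.01 ± 0.29, adjusted p 4.31e-06). TGFB1, the TGFβ1 ligand, rose from 3.21 ± 2.48 to 37.0 ± 5.03 CPM, with a log2 of 3.56 that was 4.41 without Day0 replicate 3. SKIL, a corepressor of SMAD proteins, fell from 368, 359 and 287 CPM to 112, 113 and 146 CPM (log2 −1.43 ± 0.24, adjusted p 0.0013). None of the 9 receptors and co-receptors tested was called. The co-receptor TDGF1 was at 834 ± 133 and 540 ± 67.7 CPM (adjusted p 0.33). LEFTY1, a feedback antagonist of Nodal, was at 46.5, 4.42 and 1.24 CPM at Day0 and at 18.7, 20.1 and 10.1 CPM at Day1. LEFTY2, its close paralogue with which reads could be shared, was at 3.40 ± 2.30 and 8.56 ± 6.32 CPM. Neither was called, and in LEFTY1 the high Day0 value was again that of replicate 1. PMEPA1, a TGFβ-induced inhibitor, was at 26.0 ± 10.1 and 117 ± 8.71 CPM. Its adjusted p of 0.0486 was 0.0613 to 0.170 without any 1 library and 0.305 in DESeq2.

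Of 19 BMP genes tested 3 rose, against 2.72% of all tested genes. In the fit of the 6 libraries alone, which called 4.57% of its genes higher, 8 rose. BMP2 is given above. BMP4 went from 1.87 ± 0.620 to 8.92 ± 3.60 CPM and lost its call without Day0 replicate 1 or 2 or Day1 replicate 2 or 3 (adjusted p 0.0551 to 0.116). GREM1 (gremlin), a BMP antagonist, had 1 count at Day0 and 7.39 ± 2.37 CPM at Day1, and lost its call in 5 of the 6 fits that left out a library, all but that without Day1 replicate 2 (adjusted p 0.0515 to 0.0797). Its log2 was 6.60, and 8.26 without Day0 replicate 2. The ID genes, the usual targets of BMP signals, were not called. Nor were the other BMP targets in the list, though the median log2 of the 7 targets tested was 1.19. The summed level of the targets was 124 to 159 CPM at Day0 and 164 to 213 CPM at Day1. ID2 was at 66.3, 27.5 and 27.2 CPM and then at 72.3, 80.8 and 81.4 CPM, and was called higher without Day0 replicate 1 (log2 1.54, adjusted p 0.0183).

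In the FGF and ERK pathway 4 of 37 tested members rose and 3 fell, against 2.72% and 2.46% of all tested genes. In the fit of the 6 libraries alone 8 rose and 5 fell, against 4.57% and 4.92% of its genes. Besides FGF4 and FGF17 the FLRT membrane proteins, which bind FGF receptors, rose. FLRT2 went from 3.27, 3.71 and 5.67 CPM to 49.3, 63.9 and 48.8 CPM (adjusted p 3.26e-07), and FLRT3 from 7.97, 7.59 and 6.71 CPM to 57.8, 71.1 and 87.4 CPM (adjusted p 1.6e-06). DUSP6, a phosphatase that is induced by ERK and switches it off, fell from 320, 353 and 216 CPM to 52.3, 38.4 and 66.2 CPM (log2 −2.47 ± 0.38, adjusted p 0.000564). SPRY2 and SPRY4, other feedback inhibitors, were not called. SPRY4 was at 140 ± 33.5 and 81.8 ± 23.2 CPM (adjusted p 0.104). The ETS factor ETV1 fell from 113 ± 8.73 to 36.7 ± 8.46 CPM, with an adjusted p of 0.0682 or 0.0596 without Day1 replicate 1 or 3. FOS, an immediate early factor, was at 29.4, 51.4 and 11.3 CPM and then at 8.22 ± 1.39 CPM, and lost its call without any of 5 libraries, each but Day0 replicate 3 (adjusted p 0.0668 to 0.246).

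Some genes of the mesenchymal transition rose, and few epithelial genes were called although their summed level fell. Of 21 transition genes tested 9 rose and none fell, against 2.72% and 2.46% of all tested genes. CDH2 (N-cadherin), the cadherin of streak mesoderm, went from 184, 121 and 142 CPM to 659, 668 and 704 CPM (log2 2.21 ± 0.17, adjusted p 3.49e-07). CDH11, a mesenchymal cadherin, rose from 19.0 ± 5.82 to 96.9 ± 11.9 CPM, and the intermediate filament VIM from 218 ± 24.7 to 553 ± 112 CPM. SNAI1 and SNAI2, zinc finger repressors of E-cadherin, reached 16.7 ± 0.958 CPM from 1.06 ± 0.579 CPM and 11.4 ± 3.20 CPM from 1.35 ± 1.64 CPM. ZEB2, another such repressor, rose from 21.5 ± 6.01 to 61.1 ± 16.0 CPM. ITGA5, the fibronectin receptor chain, rose from 9.56 ± 1.97 to 43.1 ± 12.7 CPM, and the actin-binding TAGLN from 64.9 ± 29.9 to 286 ± 17.9 CPM. The log2 of SNAI2 was 3.19, and 2.51 or 4.82 without Day0 replicate 1 or 2. The protease MMP2, at a log2 of 1.03, lost its call without Day0 replicate 2 or 3 or Day1 replicate 1 or 3 (adjusted p 0.0551 to 0.133). TWIST1 was at 0.634 ± 0.811 and 0.607 ± 0.577 CPM.

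Of 33 epithelial junction genes tested 3 fell and none rose, against 2.46% and 2.72% of all tested genes. The fit of the 6 libraries alone, which called 4.92% of its genes lower, called 9 of the list lower. The summed level of the list went from between 4314 and 4600 CPM to between 2800 and 3224 CPM. The median log2 was −0.59, and −1.22 over the 10 regulators in it, none of them called. CGN and CGNL1, of the cytoplasmic side of the tight junction, were among the 3 that fell. CGN (cingulin), which ties the junction to actin, fell from 135, 171 and 166 CPM to 16.5, 27.9 and 27.0 CPM (log2 −2.69 ± 0.26, adjusted p 3.89e-06). Its relative CGNL1 (paracingulin) fell from 173, 174 and 222 CPM to 11.4, 13.3 and 10.8 CPM (log2 −3.97 ± 0.33, adjusted p 9.22e-07). CDH1 (E-cadherin), the epithelial cadherin, was at 678, 512 and 586 CPM and then at 308, 331 and 300 CPM. The days did not overlap, yet its log2 of −0.89 ± 0.35 was not called (adjusted p 0.135). EPCAM, at 620 ± 50.9 and 382 ± 62.9 CPM, and the claudin CLDN6, at 486 ± 37.2 and 347 ± 57.9 CPM, were not called either. Their mean levels at Day2 were 45.1 CPM for CDH1, 85.0 CPM for EPCAM and 64.3 CPM for CLDN6.

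Of 27 matrix genes tested 4 rose and 4 fell, against 2.72% and 2.46% of all tested genes. Without Day0 replicate 1 the count of those higher was 7, and over the other fits the count of those lower was 2 to 5, or 7 by adjusted p alone. HAS2 and HAS3 both make hyaluronan and moved in opposite directions. HAS2 rose from 9.02, 3.35 and 5.85 CPM to 106, 102 and 114 CPM (log2 4.14 ± 0.35, adjusted p 9.22e-07), and HAS3 fell from 59.5, 91.3 and 69.6 CPM to 19.3, 21.9 and 32.4 CPM (log2 −1.55 ± 0.28, adjusted p 0.00225). Fibrillar collagen chains rose, COL1A2 from 138 ± 33.3 to 476 ± 55.8 CPM and COL5A1 from 24.1 ± 10.1 to 125 ± 23.1 CPM. COL1A1, the partner chain of COL1A2, was at 77.1 ± 41.0 and 49.4 ± 10.9 CPM and was not called. TNC (tenascin C) rose from 8.93 ± 1.55 to 65.3 ± 4.02 CPM. FREM2, a basement membrane protein, fell from 69.6 ± 14.7 to 22.9 ± 4.68 CPM. The proteoglycan VCAN, at a log2 of −1.04, lost its call without Day0 replicate 2 or 3 or Day1 replicate 1 or 2 (adjusted p 0.0617 to 0.0830). FN1 (fibronectin), at 102 ± 20 and 183 ± 11.4 CPM, had an adjusted p of 0.0322 but a log2 of 0.87, short of the limit.

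Receptors and ligands that steer moving cells rose in 11 of 40 cases and fell in 4, against 2.72% and 2.46% of all tested genes. The fit of the 6 libraries alone, which called 4.92% of its genes lower, called 8 lower. The fits without 1 library called 1 to 3 lower, of which that without Day0 replicate 1 called 2. The Eph receptors EPHA2 and EPHA4 rose, EPHA2 from 25.2, 30.6 and 17.0 CPM to 118, 153 and 137 CPM (adjusted p 5.85e-05) and EPHA4 from 26.2, 26.1 and 24.4 CPM to 96.8, 84.8 and 99 CPM (adjusted p 1.44e-05). EFNA5, an ephrin they bind, rose from 11.2 ± 0.702 to 29.8 ± 1.5 CPM. The guidance cues NTN1 (netrin) and SLIT2 rose, from 3.57 ± 0.665 to 29.8 ± 5.46 CPM and from 30.9 ± 9.35 to 109 ± 16.5 CPM. The semaphorin receptors PLXNA2 and NRP1 rose, from 5.41 ± 2.30 to 51.5 ± 7.58 CPM and from 3.42 ± 2.59 to 32.1 ± 6.18 CPM. SEMA3A, a ligand of neuropilin, fell from 60.1, 86.9 and 87.0 CPM to 37.4, 19.3 and 28.4 CPM (adjusted p 0.00811, and 0.0551 without Day1 replicate 2). The log2 of NRP1 was 3.24, and 3.96 without Day0 replicate 3.

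Growth factor receptors and ligands in that list also parted. PDGFRA, a receptor of early mesoderm, rose from 4.02 ± 2.29 to 19.7 ± 6.15 CPM, and its ligand gene PDGFA fell from 129, 29.8 and 25.4 CPM to 10.1, 13.6 and 10.6 CPM. Without Day0 replicate 1 the log2 of PDGFA was −1.24 in place of −2.40, and that of PDGFRA 2.88 in place of 2.27. KITLG, the KIT ligand, rose from 8.15 ± 2.97 to 74.7 ± 8.27 CPM, while KIT was at 31.6 ± 18.3 and 17.3 ± 4.24 CPM and was not called. CXCR4, a chemokine receptor of mesendoderm, was at 10.7 ± 3.31 and 17.0 ± 2.05 CPM (adjusted p 0.216). EPHB3 was called higher and lost its call in 5 of the 6 fits without a library, all but that without Day0 replicate 1 (adjusted p 0.0618 to 0.122), where its log2 was 2.87 in place of 1.95. EPHB2 and SEMA6A were called lower and each lost the call in 5 such fits, EPHB2 in all but that without Day0 replicate 2 (adjusted p 0.0764 to 0.176) and SEMA6A in all but that without Day0 replicate 3 (0.0507 to 0.12).

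**Figure D4:**
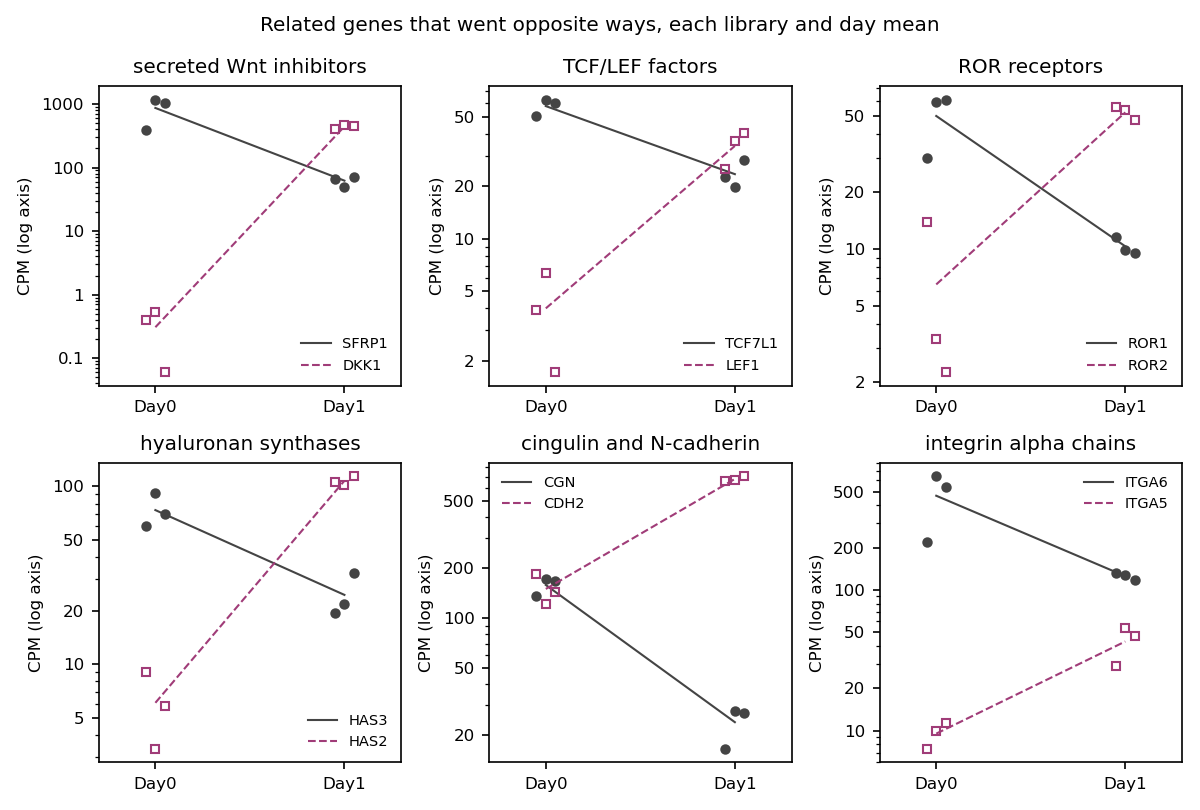
CPM in each library on log axes for 6 pairs of related genes in which one member was called lower and the other higher at Day1, chosen after their values were seen. Lines join the day means, points are libraries, and the 1 library of DKK1 without a count is drawn at 0.06. In each panel the filled member falls and the open one rises, and levels are comparable within a gene, not between genes.

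Genes of amino acid supply and the stress response that accompanies its shortage were called in one direction. Of 19 tested 7 rose and none fell, against 2.72% and 2.46% of all tested genes. The fit of the 6 libraries alone, which called 4.57% of its genes higher, called 11 higher. The 2 chains of the large neutral amino acid transporter rose, SLC7A5 from 86.0, 301 and 275 CPM to 1081, 1372 and 1281 CPM (log2 2.53 ± 0.43, adjusted p 0.00129) and SLC3A2 from 184, 216 and 266 CPM to 554, 679 and 584 CPM (log2 1.47 ± 0.28, adjusted p 0.00327). ASNS (asparagine synthetase) rose from 151 ± 15.4 to 343 ± 63.5 CPM, and the pseudokinase TRIB3 from 3.76 ± 2.11 to 28.7 ± 3.48 CPM. ATF4, the transcription factor that drives this programme, was at 246 ± 23.4 and 343 ± 38.0 CPM and was not called (adjusted p 0.0832). SESN2, PSAT1 and HERPUD1 were called higher, but SESN2 not without any 1 of the Day1 libraries (adjusted p 0.0649 to 0.1), HERPUD1 not without Day0 replicate 1 or Day1 replicate 2 (0.0807 and 0.138), and PSAT1 only down to a log2 of 0.88 and 0.91 without Day0 replicate 1 or Day1 replicate 2.

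The shares of all tested genes called were 2.72% higher and 2.46% lower, against which a list's single call is not a result about the list. Of 17 glycolysis genes only SLC2A3 (GLUT3), a glucose transporter of embryonic cells, was called, rising from 1823, 1637 and 1729 CPM to 4398, 4742 and 4182 CPM (log2 1.39 ± 0.21, adjusted p 0.000507), while SLC2A1 was at 156 ± 22.2 and 172 ± 38.2 CPM. Of 16 cholesterol synthesis genes 1 rose and none fell. In the retinoic acid list of 16 tested genes, the degrading enzyme CYP26A1 rose from 14.5 ± 6.82 to 134 ± 31.5 CPM, the binding protein CRABP2 rose 2.95-fold, and LRAT, which esterifies retinol, fell from 283, 51.1 and 77.4 CPM to 4.71, 8.85 and 7.85 CPM. Without Day0 replicate 1 the log2 of LRAT was −3.13 in place of −4.22. Of 15 YAP and TEAD genes 4 rose, of which AMOTL2, an angiomotin that holds YAP in the cytoplasm, was called in every other fit, at 36.6 ± 8.09 and 107 ± 17.0 CPM. CTGF and CYR61, the usual YAP targets, were not called.

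Few cell division genes were called. With 5.18% of all tested genes called, so few calls in lists of this size are not a result about the lists. None of the 17 replication genes was called by edgeR, and of the 17 mitosis genes only CENPF, a kinetochore protein, was, at a log2 that fell short of −1 in 5 of the 15 other fits. CCNB1 (cyclin B1) was at 287 ± 30.1 and 186 ± 12.5 CPM (adjusted p 0.0532). The CDK inhibitor CDKN1A was at 1.5 ± 0.848 and 7.04 ± 1.71 CPM and was called higher, but not without Day0 replicate 1 or Day1 replicate 2 (adjusted p 0.0514 and 0.0552). Of 9 HOX genes tested none was called. Of 15 Notch genes tested none was called higher (1 without Day0 replicate 3) and NOTCH3, a receptor, was called lower at 56.3 ± 10.1 and 26.3 ± 6.33 CPM. Its call was lost without Day0 replicate 3 or Day1 replicate 1 or 2 (adjusted p 0.0699 to 0.123), and without Day0 replicate 1 the list had 2 genes lower.

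**Figure D5:**
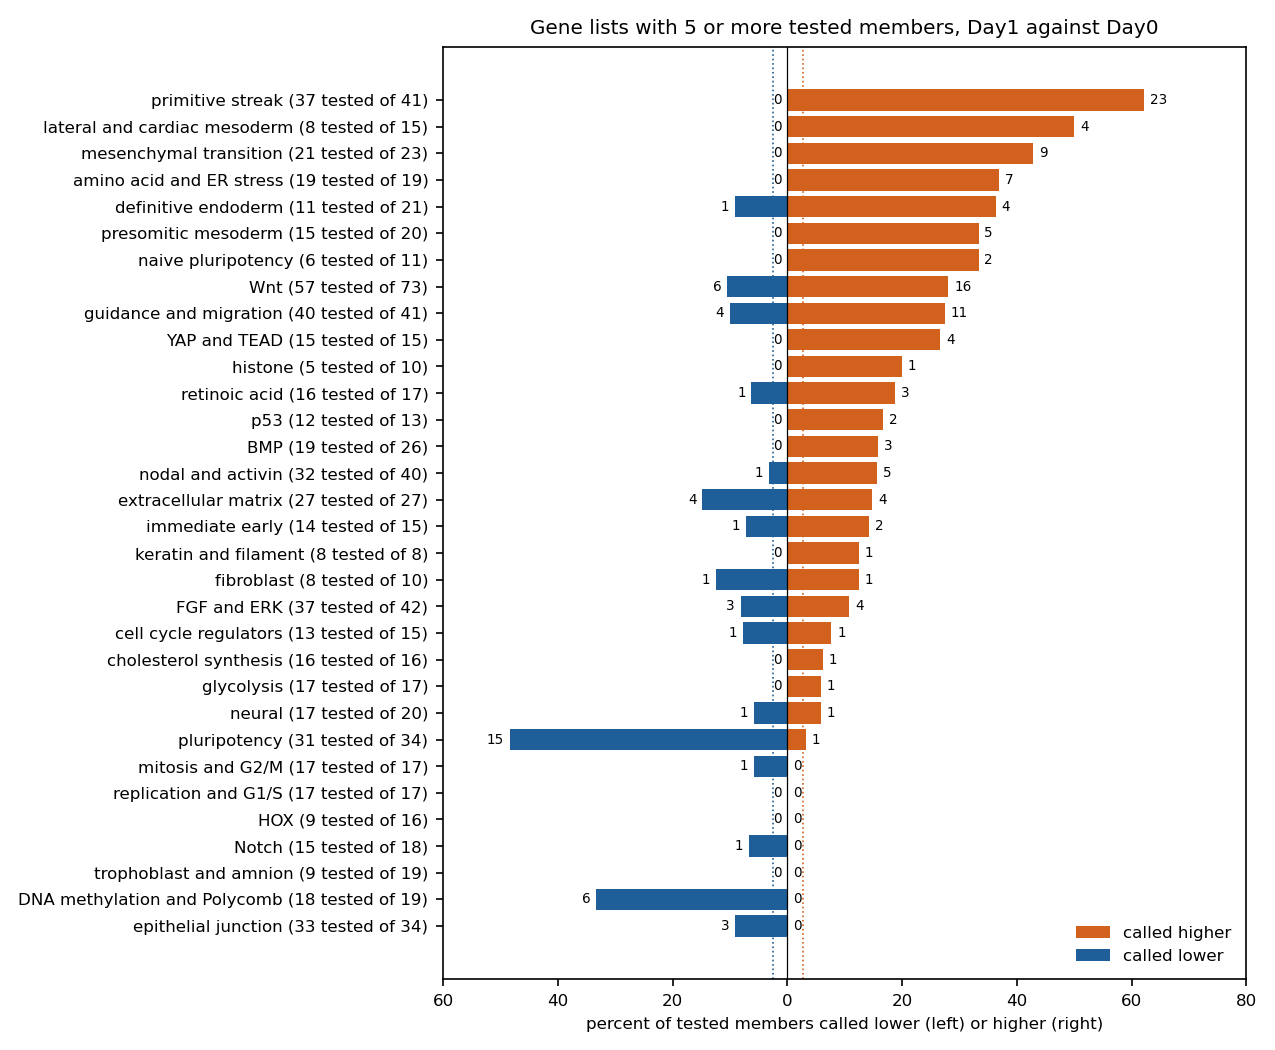
Percent of tested members called higher (right) or lower (left) at Day1 in each gene list with 5 or more tested members, with the number called at each bar end and the numbers tested and in the table beside the name. Dotted lines mark the percent called over all tested genes, 2.72 higher and 2.46 lower. The primitive streak list extends furthest to the right and the pluripotency list furthest to the left.

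The genes with the largest change in TPM included SERPINE2, a secreted protease inhibitor, which went from 66.4, 45.1 and 64.3 CPM to 1548, 1697 and 1423 CPM (log2 4.75 ± 0.24, adjusted p 4.18e-09). ODC1 (ornithine decarboxylase), the first enzyme of polyamine synthesis, rose from 455, 385 and 327 CPM to 1293, 1415 and 1487 CPM (log2 1.87 ± 0.17, adjusted p 2.53e-06). The β-tubulins TUBB2A and TUBB2B, near-identical copies between which reads may be split uncertainly, rose 6.30-fold and 3.11-fold. On the falling side SEPHS1, a selenophosphate synthetase relative counted above in the pluripotency list, went from 1329, 1320 and 1302 CPM to 390, 415 and 399 CPM (adjusted p 6.14e-06), and the chromatin-binding PSIP1 (LEDGF) from 2147 ± 137 to 921 ± 98.3 CPM. For FABP5, RPL30, TMSB4X and CD9, the last also in the pluripotency list, which were among the largest changes in TPM, the call was lost without at least 1 library. FABP5 lost it without Day0 replicate 2 (adjusted p 0.0529) and RPL30 without any 1 library (0.0610 to 0.126). CD9 lost it without Day0 replicate 1 or Day1 replicate 1 or 3 (0.0510 to 0.0570). TMSB4X was at 4587, 1820 and 1887 CPM and then at 1270 ± 47.3 CPM, and its log2 of −1.10 was −0.52 without Day0 replicate 1. It also lost the call without any 1 Day1 library (adjusted p 0.0824 to 0.0993).

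The steepest falls were in genes of mixed function. ZDHHC22, a palmitoyltransferase, went from 110, 57.5 and 70.1 CPM to 0.234, 3.24 and 2.58 CPM (log2 −5.22 ± 0.58, adjusted p 1.88e-05). TRIML2, a TRIM family protein, fell from 61.2, 24.5 and 42.3 CPM to 1.61, 1.01 and 0.800 CPM (adjusted p 0.000394). CTTNBP2, a cortactin-binding protein, fell 16.4-fold, and the membrane protein TMEM132B 15.1-fold. METTL7A, a methyltransferase-like protein, fell 12.0-fold. The receptor gene GPR176 fell 14.0-fold. Of the 12 steepest falls, TNFSF11 (RANKL), IDO1 and KLHDC7A lost the call without at least 1 library. TNFSF11, at 20.3 ± 4.35 and 0.342 ± 0.344 CPM, did so in 5 of 6 cases (adjusted p 0.0507 to 0.0780), all but that without Day0 replicate 1, and the tryptophan-degrading enzyme IDO1, at 20.5 ± 15.7 and 1.15 ± 0.702 CPM, in 4 (0.0541 to 0.144), those without Day0 replicate 2 or 3 or Day1 replicate 2 or 3. KLHDC7A did so in all but that without Day0 replicate 1 (0.0673 to 0.156). The log2 of TNFSF11 was −5.81, and −6.63 without Day1 replicate 1, that of IDO1 −4.12, and −3.39 without Day0 replicate 3, and that of KLHDC7A −3.53, and −4.35 without Day1 replicate 2.

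The later days share the Day1 and Day0 libraries with this comparison and are given only as levels. CER1, NODAL and DKK4 were at 0.571, 1.90 and 0 CPM at Day2, after 443, 371 and 149 CPM at Day1. EOMES and GATA6 were at 8.95 ± 7.58 and 5.33 ± 2.99 CPM at Day2. T and SP5 were still at 55.8 ± 19.8 and 54.6 ± 18.0 CPM. CDH11, LEF1 and RSPO3 were higher in their Day2 means than in their Day1 means, at 294 ± 82.9, 88.9 ± 21.4 and 221 ± 99.2 CPM. POU5F1 and NANOG, not called at Day1, were at 170 ± 18.2 and 1.38 ± 2.15 CPM at Day2. SFRP1 was at 114 ± 18.7 CPM at Day2 and 398 ± 87.7 CPM at Day3.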

How the data were processed

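Total RNA was sequenced as LM-seq libraries, 3 of Day0 and 3 of Day1, per the labels' protocols. The authors deposited expected counts per gene, an estimate that need not be whole, and TPM, which also divides by gene length. The submitters' processing notes list the genome builds mm8 and hg19 and the aligner Bowtie (0.12.2). Which program counted, and with which annotation, are details not given in the sources used here.

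Expected counts were rounded and fitted in edgeR 4.0.16 (R 4.3.3) with TMM scaling, filterByExpr and the quasi-likelihood test on all 12 daily libraries, with the day as the only term. The contrast was Day1 minus Day0, and p-values were adjusted by Benjamini-Hochberg over 12765 genes. CPM are scaled to a library's raw total. Totals of 4.36 to 7.65 M counts leave genes of a few CPM with large counting error. Intervals of ratios are exact 95% intervals and cover counting error only. The script was tested on simulated data.

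Genes are named by a rule: the 12 largest rises and falls at 20 CPM or more with 1 direction in all 9 library pairs, the 8 largest TPM changes each way, up to 4 called and 2 uncalled members of each list, and genes switched on. Other list members and the genes of the closing observations were chosen after their values were seen. Some genes counted in the lists are not reported here by name. The members and lists were chosen with earlier results of these data known. Alternatives changed the scaling, the filter, the libraries fitted, the tool (DESeq2 1.42.0, limma 3.58.1 on log2 of TPM with a pseudocount of 1 or 0.1) and left out each library.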

Additional observations from a re-analysis of the deposited data

How the results depend on the processing

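Of 116 called genes named by the rule in the processing section, 79 kept the call in all 15 alternative fits, 37 lost it in at least 1, and none changed direction. Of 181 called genes looked at in all, 53 lost the call when 1 library was left out. The fit of the 6 libraries alone called 1139 genes, 548 higher and 591 lower, in place of 661, 347 and 314. Leaving out 1 library gave 435 to 570 genes, with 223 to 307 higher and 194 to 263 lower. The total was lowest without Day1 replicate 1 (435), the count higher without Day0 replicate 2 (223), and the count lower without Day1 replicate 2 (194) or Day1 replicate 1 (197). DESeq2 called 453 higher and 463 lower. On log2(TPM + 1), limma called 326 higher and 449 lower. With the replicate number as a block, 666 genes were called, 352 higher and 314 lower, of which 613 were among the 661. No pairing by number was detected, as deviations of same-numbered libraries correlated at 0.00271, −0.0129 and −0.0053. The labels do not say whether same-numbered libraries share a culture, and these correlations cannot settle it. Depth limits what can be said of genes under about 1 CPM, where 3 counts amount to 0.392 to 0.689 CPM.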

Other observations

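The genes here were chosen after their values were seen. SMOX, which oxidises the polyamine spermine, rose from 6.40, 6.53 and 6.36 CPM to 25.2, 24.1 and 29.6 CPM (adjusted p 0.00118 in edgeR), and OAZ2, an antizyme that restrains ODC1, fell from 115 ± 6.12 to 41.9 ± 4.02 CPM (adjusted p 2.97e-05). The receptor gene ERBB2 fell from 169, 451 and 441 CPM to 32.1, 47.6 and 51.4 CPM and ERBB3 fell from 77.1 ± 21.1 to 15.6 ± 1.16 CPM, while the ligand gene EGF rose from 2.55 ± 0.711 to 21.0 ± 2.95 CPM. WLS, which escorts Wnt ligands to the cell surface, rose from 40.5 ± 5.87 to 182 ± 31.4 CPM.

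UBE2L6, an enzyme of ISG15 conjugation, fell from 14.6, 29.3 and 16.3 CPM to 2.52, 2.20 and 0.600 CPM, and SAMHD1, a dNTP hydrolase, fell from 36.5 ± 10.3 to 6.96 ± 2.08 CPM. The membrane protein IFITM1 rose from 53.7 ± 28.0 to 208 ± 25.5 CPM. ISG15 was at 5.29 ± 0.861 and 0.256 ± 0.310 CPM, and its call was lost in 5 of 6 fits without a library, all but that without Day1 replicate 3 (adjusted p 0.0604 to 0.125), where its log2 of −4.20 was −5.45. Other interferon-responsive genes were called too, IDO1, TRIM25 and RNF213 lower and IFIT2 higher, and each lost the call without at least 1 library: IDO1 without Day0 replicate 2 or 3 or Day1 replicate 2 or 3 (adjusted p 0.0541 to 0.144), TRIM25 without Day0 replicate 1 (0.0518), RNF213 without any but Day0 replicate 1 (0.0920 to 0.142) and IFIT2 without Day0 replicate 2 or Day1 replicate 1 or 2 (0.0551 to 0.0714). The log2 of IDO1 was −4.12, and −3.39 without Day0 replicate 3. The log2 of IFIT2 was 4.41, and 3.79 or 5.12 without Day0 replicate 1 or 3.

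Other large rises included CYP1B1, a cytochrome P450, from 2.48, 3.88 and 5.16 CPM to 247, 248 and 262 CPM, and PCDH10, a protocadherin, from 4.47, 8.30 and 12.0 CPM to 214, 252 and 226 CPM. The neuropeptide gene GAL rose from 9.24 ± 3.41 to 211 ± 42.2 CPM, and CAV1 (caveolin) from 5.94 ± 2.40 to 121 ± 5.96 CPM. PCDH1, another protocadherin, fell from 79.0 ± 27.4 to 13.6 ± 5.24 CPM, and GLDC, which cleaves glycine, from 160 ± 33.3 to 39.8 ± 6.97 CPM.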
